A study of Arabidopsis thaliana with 6 samples.

Results

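The nuclear genes of photosystem I (PSI), photosystem II (PSII) and their light-harvesting antenna were examined in *rse1-1* and WT leaves of *Arabidopsis thaliana*. They were taken by locus from the table of gene counts, and there are 44 of them among the 33602 genes listed. Of these, 12 encode PSI subunits, 12 encode PSII subunits, 6 are *LHCA* genes of the PSI antenna and 14 are *LHCB* genes of the PSII antenna. The mutant was *rse1-1*, an EMS allele in L*er* that carries a premature stop codon in *RSE1* (AT5G22070), a gene of a glycosyltransferase-like protein, and its control was WT L*er*. Both were grown in soil at 22 °C with 16 h of light and 8 h of dark, and leaves 3 and 4 were taken at 16 DAS (days after sowing), when neither genotype showed yellowing by eye. The mRNA of 3 libraries of each genotype was sequenced. *rse1-1* is a single mutagenized line, and no complemented line is among the 6 libraries, so that *RSE1* and any other change linked to it in this line cannot be told apart.

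The photosystems are pigment-protein complexes of the thylakoid membrane. PSII splits water and feeds electrons into the chain, and PSI passes them on to ferredoxin. Their reaction centers are encoded in the plastid, while the nucleus encodes small subunits, the extrinsic proteins of the water-splitting side and nearly all of the chlorophyll-binding antenna. These nuclear genes are among the most abundant transcripts of a green leaf, and their decline is a textbook feature of leaf senescence.

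Every measured photosystem and antenna gene with more counts than both adjacent genes was lower in *rse1-1*. Counts of at least 10 on average were called measured, which held for 24 of the 44 genes. Of these, 17 had more counts than either adjacent gene of the annotation, and all 17 were lower in *rse1-1*, at 36.7% to 77.8% of the WT mean. This exceeds the background of 38.3% of the 16294 genes tested that were lower by the same rule (edgeR's quasi-likelihood test, Benjamini-Hochberg adjusted p under 0.05). Abundant genes were lower more often than other genes, and the background was 70.9% among the 206 genes that averaged 500 CPM or more, a level that 15 of the 17 reached. CPM is the number of counts per 1e6 counts on genes after TMM scaling. The other 7 measured genes had fewer counts than an adjacent gene and moved in both directions, with 3 lower, 2 higher (background 38.8% of the genes tested) and 2 not called. The remaining 20 genes were not measured, with 0 counts in every library for 11 and at most 5 counts in any library for 9. A count of 0 in every library was not particular to these genes, since 11797 of the 33602 genes listed had it.

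The libraries held 10360028 to 15244500 counts on genes in *rse1-1* and 9960144 to 11626752 in WT. A count of 0 allows up to 3 counts, or 0.197 to 0.290 CPM in *rse1-1* and 0.258 to 0.301 CPM in WT, for counting error only. *RSE1* itself had 18.9, 21.2 and 21.0 CPM in *rse1-1* against 57.1, 54.4 and 57.5 CPM in WT (log2 fold change -1.47, standard error 0.0832, adjusted p = 5.33e-10, edgeR). Among leaf mesophyll markers, 4 of 6 had any count and *RBCS2B* and *RBCS3B* were listed at 0. The markers summed to 2314 to 2836 CPM in *rse1-1* and 5394 to 5565 CPM in WT. Guard cell markers (2 of 2 with counts) summed to 151 to 166 CPM in *rse1-1* and 106 to 110.1 CPM in WT, but moved apart, with *KAT1* higher (115 ± 7.30 CPM in *rse1-1* and 56.4 ± 5.26 CPM in WT, SD, n = 3 each) and *FAMA* lower (42.1 ± 1.89 CPM in *rse1-1* and 51.5 ± 3.12 CPM in WT). The epidermis markers (1 of 2) summed to 55.6 to 71.3 CPM in *rse1-1* and 131 to 151 CPM in WT. *SUC2*, of phloem companion cells, had 503 to 524 CPM in *rse1-1* and 581 to 614 CPM in WT. Flower markers (3 of 4, *AG* at 0) summed to 0.239 to 0.775 CPM in *rse1-1* and 4.65 to 5.07 CPM in WT, and root tip markers were at or near 0 in both. The flower sum in WT was mainly *SEP3*, which was lower in *rse1-1* and lies below an adjacent gene. *SEP3* had 0.334 ± 0.220 CPM in *rse1-1* and 4.79 ± 0.258 CPM in WT (log2 fold change -3.88, adjusted p = 3.08e-08, edgeR, SD, n = 3 each). *AP3* and *PI* averaged 0.5 and 0.667 counts. The mesophyll markers moved with the photosystem genes, and their part in the values below was not tested. Past 10 Mb of a chromosome a listed value may hold reads of another gene, as described below. Among the mesophyll, epidermis and guard cell markers, this applies to *RCA*, *RBCS1A*, *RBCS1B*, *RBCS2B*, *RBCS3B*, *ATML1*, *PDF1* and *KAT1*. In whole leaves, fewer cells of a type and less RNA per cell cannot be told apart.

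The 17 genes above their neighbours together held 17641, 21304 and 18665 CPM in *rse1-1* against 33549, 32302 and 30254 CPM in WT. Their share of all counts on genes was therefore 1.78%, 2.12% and 1.88% in *rse1-1*, and 3.32%, 3.21% and 3.02% in WT. The genotypes did not overlap in this sum, which averaged 19204 ± 1890.0 CPM in *rse1-1* and 32035 ± 1664 CPM in WT (SD, n = 3 each). For 16 of the 17 genes every *rse1-1* library was below every WT library, as for 39.5% of all genes tested. Every *rse1-1* library was above every WT library for 0 of the 17 (40.0% of all genes tested). The median log2 fold change of the 17 was -0.73, against -0.01 over all genes tested, and single genes lay between -1.45 and -0.36. The libraries of one genotype also moved together. *rse1-1* replicate 2 was the highest *rse1-1* library for 17 of the 17 genes, and WT replicate 1 was the highest WT library for 15 of them, the exceptions being *LHCB2.1* and *LHCB2.2*. The genes are therefore not independent measurements of the difference.

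**Figure D1:**
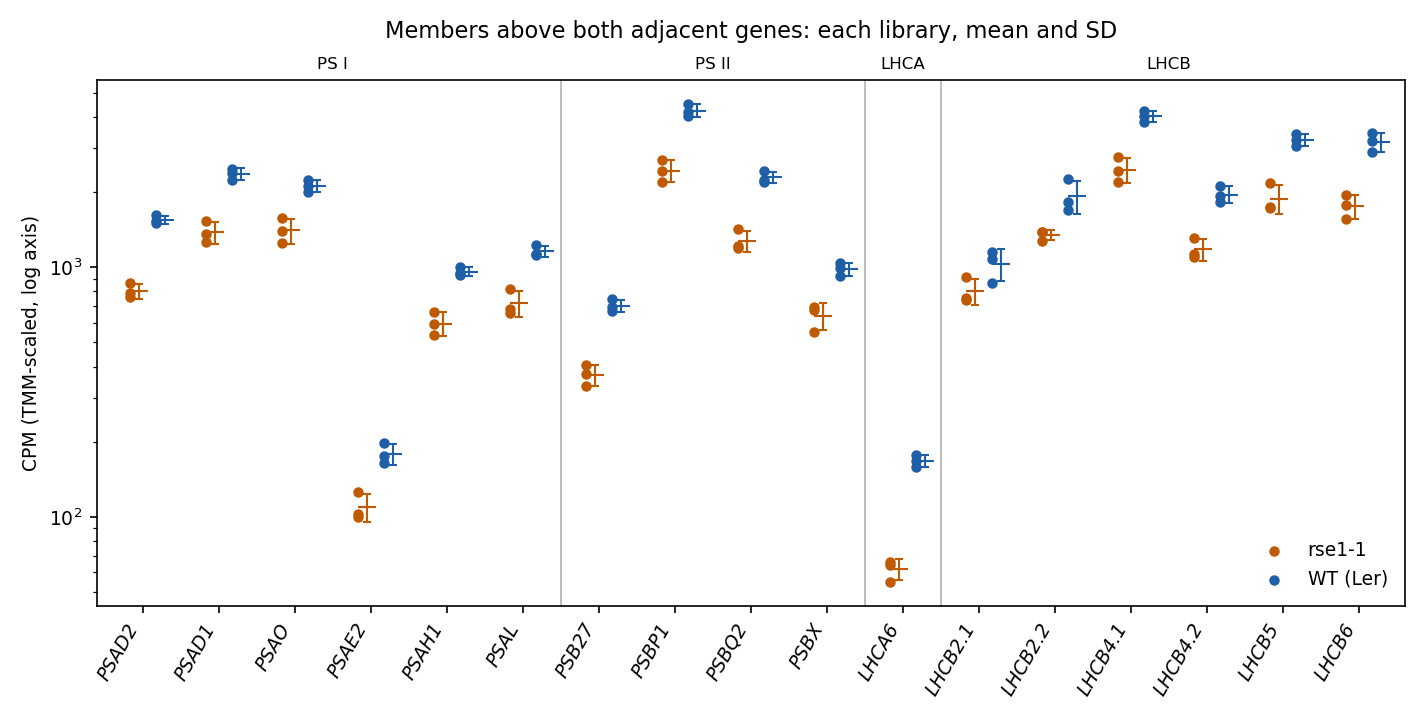
CPM (log axis) of the 17 photosystem and antenna genes that had more counts than both adjacent genes, with *rse1-1* libraries in orange on the left of each gene and WT (L*er*) libraries in blue on the right. Points are single libraries, the bars beside them the mean and SD of 3, and the genotypes overlap for *LHCB2.1* alone.

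PSI takes up electrons from plastocyanin and reduces ferredoxin on its stromal side. Of its 12 nuclear genes, 6 were measured, all 6 were above their neighbours, and all 6 were lower in *rse1-1*, at 51.9% to 66.2% of WT with a median log2 fold change of -0.70. *PSAD1* and *PSAD2* encode the stromal subunit at which ferredoxin docks. *PSAD1* (AT4G02770, TAIR10.1 chr4:1229031-1230164, minus strand) had 1256, 1532 and 1355 CPM in *rse1-1* against 2482, 2377 and 2233 CPM in WT (log2 fold change -0.78, standard error 0.0904, adjusted p = 1.64e-06, edgeR). The highest *rse1-1* library was thus well below the lowest WT library. *PSAD2* (AT1G03130, chr1:753307-754262, minus strand) showed the largest decrease of the PSI genes. It had 786, 866 and 756 CPM in *rse1-1* against 1616, 1526 and 1498 CPM in WT (log2 fold change -0.95, standard error 0.0805, adjusted p = 5.09e-08, edgeR). *PSAO* (AT1G08380, chr1:2640803-2641934, minus strand), a membrane subunit near the site where the mobile antenna binds, had the smallest decrease of the 6. It had 1246, 1567 and 1399 CPM in *rse1-1* and 2237, 2121 and 2006 CPM in WT, again without overlap (log2 fold change -0.60, standard error 0.0932, adjusted p = 3.51e-05, edgeR).

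*PSAL* and *PSAH1* encode subunits on the side of PSI that binds the mobile antenna, and *PSAE2* encodes a second stromal subunit of the ferredoxin side. *PSAL* had 655 to 816 CPM in *rse1-1* and 1117 to 1229 CPM in WT (log2 fold change -0.69), and *PSAH1* had 533 to 660.5 CPM in *rse1-1* and 929.6 to 1002 CPM in WT (-0.69). *PSAE2* had the lowest level per length of the 6, with 99.6, 126 and 103 CPM in *rse1-1* against 198, 175 and 164 CPM in WT (log2 fold change -0.71, adjusted p = 7.00e-06, edgeR). The other 6 PSI genes were not measured. *PSAE1*, *PSAG*, *PSAH2* and *PSAK* had 0 counts in every library, *PSAN* averaged 0.833 counts and *PSAF* 3.17 counts. PsaF, which binds plastocyanin, and PsaN face the lumen, and PsaG and PsaK are membrane subunits at the edges of the complex.

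PSII carries its water-splitting cluster on the lumenal side, covered by the extrinsic proteins PsbO, PsbP and PsbQ. Of the 12 nuclear PSII genes, 7 were measured and 4 were above their neighbours. All 4 were lower in *rse1-1*, at 53.0% to 64.9% of WT with a median log2 fold change of -0.82. *PSBP1* (AT1G06680, chr1:2047634-2049439, plus strand) had the highest level per length of all 17 genes in both genotypes. It had 2191, 2685 and 2429.8 CPM in *rse1-1* against 4506, 4160.1 and 4023 CPM in WT (log2 fold change -0.80, standard error 0.0949, adjusted p = 2.08e-06, edgeR). *PSBQ2* (AT4G05180, chr4:2671523-2673243, minus strand) had 1213, 1419 and 1189.6 CPM in *rse1-1* against 2429, 2240.4 and 2201 CPM in WT (log2 fold change -0.85, standard error 0.0895, adjusted p = 5.74e-07, edgeR). For both extrinsic proteins every *rse1-1* library was below every WT library. *PSB27* (AT1G03600), a lumenal protein that acts in the assembly and repair of PSII, had 335, 406 and 373 CPM in *rse1-1* and 745, 691 and 665 CPM in WT (log2 fold change -0.92, adjusted p = 1.12e-07, edgeR). *PSBX* (AT2G06520), a small membrane subunit, had 548, 693 and 672 CPM in *rse1-1* and 1038, 989.9 and 920.2 CPM in WT (log2 fold change -0.62, adjusted p = 2.13e-05, edgeR).

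The 3 other measured PSII genes lay below an adjacent gene and were low. *PSBO1* and *PSBO2* encode the manganese-stabilizing protein of the water-splitting cluster. *PSBO1* (AT5G66570, chr5:26568572-26570461, plus strand) had 12.4, 11.9 and 12.9 CPM in *rse1-1* against 18.7, 20.4 and 19.7 CPM in WT (log2 fold change -0.66, adjusted p = 3.53e-05, edgeR). *PSBO2* (AT3G50820, chr3:18890874-18892508, minus strand) went against the other PSII genes, with 20.04, 18.9 and 21.4 CPM in *rse1-1* against 4.77, 4.92 and 4.39 CPM in WT (log2 fold change 2.1004, standard error 0.127, adjusted p = 1.15e-09, edgeR). Per kb of exon, *PSBO1* had 8.22 CPM and *PSBO2* 15.1 CPM in *rse1-1*, against 13.0 and 3.54 CPM in WT, while *PSBQ2* had 1002 CPM in *rse1-1* and 1802 CPM in WT. *PSBTN*, a small lumenal subunit, had 1.56, 1.26 and 1.196 CPM in *rse1-1* against 3.35, 2.56 and 4.83 CPM in WT (log2 fold change -1.41, adjusted p = 2.61e-04, edgeR). The 5 genes not measured were *PSBQ1*, *PSBR* and *PSBS* (listed as *NPQ4*), with 0 counts in every library, and *PSBW* and *PSBY*, which averaged 0.167 and 1.17 counts. PsbS is the sensor of thermal dissipation of excess light.

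The *LHCA* genes encode the antenna belt of PSI, which is built mainly from Lhca1 to Lhca4. Of the 6, only *LHCA6* and *LHCA1* were measured. *LHCA6* (AT1G19150, chr1:6612630-6613972, plus strand), known for joining PSI to the chloroplast NDH complex of cyclic electron flow, showed the largest decrease of the 17 genes. It had 55.05, 65.8 and 64.4 CPM in *rse1-1* against 178, 168 and 159 CPM in WT, which is 36.7% of WT (log2 fold change -1.45, standard error 0.0814, adjusted p = 4.94e-10, edgeR). *LHCA6* was also the gene with the lowest level per length of the 17, at 53.1 CPM per kb of exon in *rse1-1* and 145 in WT. *LHCA1* (AT3G54890, chr3:20339504-20341176, minus strand) lay below an adjacent gene and was not called. It had 19.3, 21.0 and 24.1 CPM in *rse1-1* and 20.3, 21.6 and 19.2 CPM in WT, and the genotypes overlapped (log2 fold change 0.07, standard error 0.106, adjusted p = 0.535, edgeR). *LHCA2* and *LHCA3* had 0 counts in every library, *LHCA4* averaged 0.5 counts and *LHCA5* 0.167 counts.

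The *LHCB* genes encode the PSII antenna, in which Lhcb1, Lhcb2 and Lhcb3 form the trimers of the main complex (LHCII) and Lhcb4 (CP29), Lhcb5 (CP26) and Lhcb6 (CP24) are the minor antenna that links it to the core. Of the 14 genes, 9 were measured and 6 were above their neighbours. All 6 were lower in *rse1-1*, at 55.3% to 77.8% of WT with a median log2 fold change of -0.72. *LHCB4.1*, *LHCB6* and *LHCB5* of the minor antenna had the highest levels per length of the 6 in both genotypes. *LHCB4.1* (AT5G01530, chr5:208866-210548, plus strand) had 2201.5, 2755 and 2419 CPM in *rse1-1* against 4227, 4036 and 3808 CPM in WT (log2 fold change -0.71, standard error 0.0963, adjusted p = 8.10e-06, edgeR). *LHCB5* (AT4G10340, chr4:6408007-6409849, plus strand) had 1743.5, 2174 and 1725 CPM in *rse1-1* against 3408, 3235 and 3045 CPM in WT (log2 fold change -0.78, standard error 0.1002, adjusted p = 4.59e-06, edgeR). *LHCB6* (AT1G15820, chr1:5446462-5447880, minus strand) had 1554, 1938 and 1779 CPM in *rse1-1* against 3445, 3190.0 and 2897 CPM in WT (log2 fold change -0.85, standard error 0.0993, adjusted p = 1.59e-06, edgeR). None of these 3 genes overlapped between genotypes. *LHCB4.2*, the second CP29 gene, had 1097 to 1307 CPM in *rse1-1* and 1817 to 2119 CPM in WT (log2 fold change -0.73).

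The 2 genes of the LHCII trimers that were above their neighbours had the smallest decreases of the 17. *LHCB2.1* (AT2G05100, chr2:1822990-1824480, minus strand) had 753, 912 and 738 CPM in *rse1-1* against 862, 1149 and 1079 CPM in WT. *rse1-1* replicate 2 was above WT replicate 1, so the genotypes overlapped (log2 fold change -0.36, standard error 0.109, adjusted p = 0.00728, edgeR). Without WT replicate 2 it was -0.28 with an adjusted p of 0.0533, and the call was lost. *LHCB2.2* (AT2G05070, chr2:1799234-1800472, minus strand) had 1376, 1384 and 1269 CPM in *rse1-1* against 1829, 2246.5 and 1695 CPM in WT, without overlap (log2 fold change -0.52, standard error 0.101, adjusted p = 2.67e-04, edgeR). Without *LHCB2.1*, *LHCB2.2* and *LHCA6*, the other 14 genes fell in a narrow band, from -0.95 to -0.60 on the log2 scale or 51.9% to 66.2% of WT.

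*LHCB2.1* and *LHCB2.2* are near copies. Their coding sequences of 798 bases were identical at 96.6% of positions in TAIR10.1. Of all stretches of 75 bases, the length of a read, within annotated exons, 16.2% for *LHCB2.1* and 20.5% for *LHCB2.2* also occur elsewhere in the nuclear genome. Only uniquely mapped reads were counted, so reads from stretches that are identical in L*er* too would be missing from both genes. The 75-base stretch of coding sequence in which the genes differ most is shown, 5′ to 3′ on the coding strand from coding base 19 to 93, with the 12 differing bases in capitals. It lies at chr2:1824239-1824313 for *LHCB2.1* and at chr2:1800237-1800311 for *LHCB2.2* (sequence from RefSeq, TAIR10.1).
LHCB2.1: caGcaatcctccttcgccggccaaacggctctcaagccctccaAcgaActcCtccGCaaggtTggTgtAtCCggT
LHCB2.2: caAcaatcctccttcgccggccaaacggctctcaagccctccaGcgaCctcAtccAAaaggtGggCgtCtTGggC
No 75-base stretch was shared with another place for 36 of the 44 genes. The 6 further genes with shared stretches were the 5 *LHCB1* genes (3.66% to 10.4%) and *LHCA2* (2.88%), so that most of each of these genes could be counted by unique reads.

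The 3 *LHCB* genes below an adjacent gene that were measured had low levels. *LHCB4.3* (AT2G40100, chr2:16745628-16747424, plus strand), another CP29 gene, showed the largest increase of the 44 genes. It had 47.8, 48.5 and 48.3 CPM in *rse1-1* against 3.04, 2.36 and 2.585 CPM in WT, with all *rse1-1* libraries above all WT libraries (log2 fold change 4.17, standard error 0.118, adjusted p = 3.30e-13, edgeR). The adjacent gene on its lower-coordinate side, AT2G40095, rose alongside it, with 12.04, 12.3 and 12.6 CPM in *rse1-1* against 0.507, 0.886 and 1.21 CPM in WT (log2 fold change 3.78). The adjacent gene on the other side, AT2G40110, was lower in *rse1-1* (55.0 ± 9.80 CPM, against 77.5 ± 5.68 CPM in WT, SD, n = 3 each). *LHCB3*, a trimer subunit, had 1.43, 1.55 and 1.59 CPM in *rse1-1* against 3.55, 4.33 and 2.76 CPM in WT (log2 fold change -1.21, adjusted p = 3.05e-04, edgeR). *LHCB1.4* (listed as *LHB1B1*) was near the limit of measurement, with 0.846, 0.968 and 0.957 CPM in *rse1-1* and 0.710, 0.394 and 1.29 CPM in WT (log2 fold change 0.16, adjusted p = 0.719, edgeR), and its direction cannot be read at this depth. *LHCB1.1*, *LHCB1.2* and *LHCB1.3* (listed as *CAB2*, *CAB3* and *CAB1*), *LHCB1.5* (*LHB1B2*) and *LHCB2.3* were not measured, with means of 0 to 0.667 counts. The genes of Lhcb1, the main antenna protein of a green leaf, are therefore not described by these counts.

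**Figure D2:**
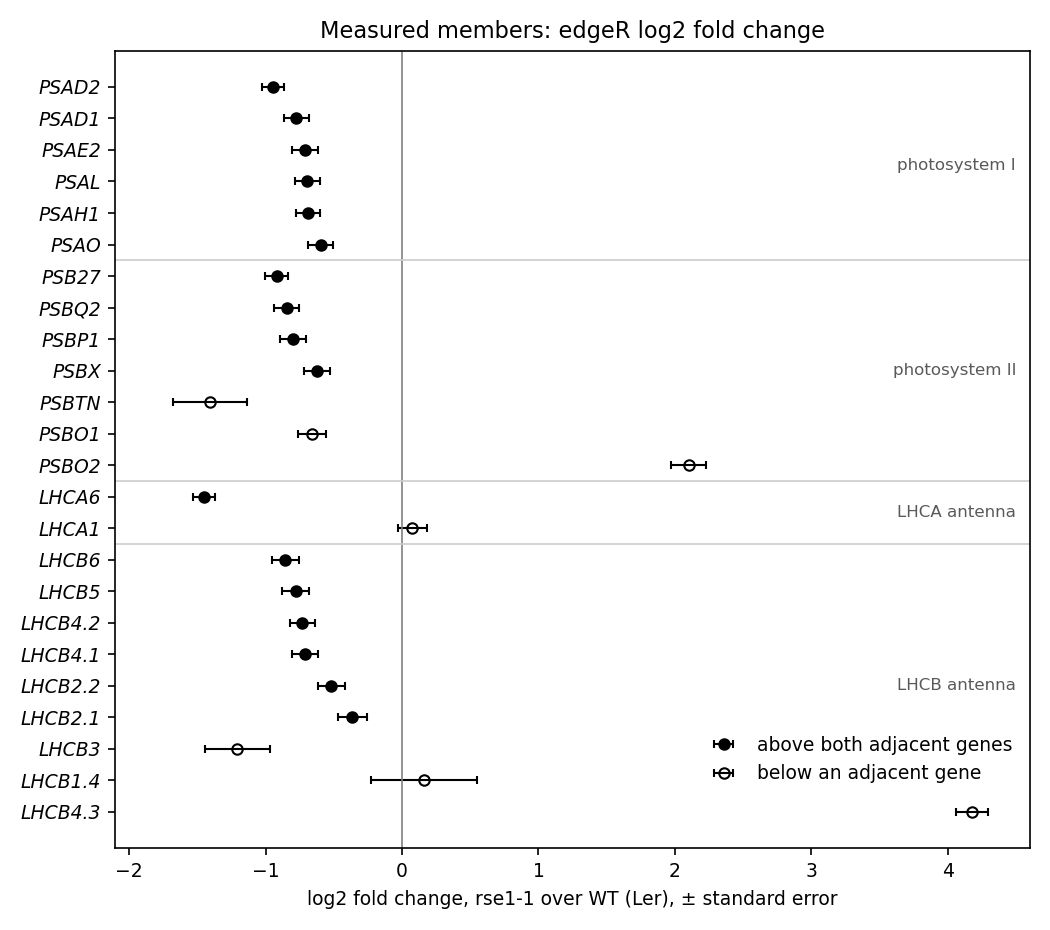
The log2 fold change of *rse1-1* over WT (L*er*) with its standard error for the 24 measured genes, by complex. Filled points are the 17 genes above both adjacent genes, which lie between -1.45 and -0.36, and open points are the 7 genes below an adjacent gene, which lie between -1.41 and 4.17.

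Whether a gene was measured went with its position. All 11 genes whose start lies within 5 Mb of a chromosome's first base were measured and above both neighbours. Between 5 and 10 Mb this held for 6 of 7 genes, the exception being *PSBTN* at 7.38 Mb. Past 10 Mb it held for 0 of 26 genes, of which 20 were not measured. The same split by position over all genes is not given here. The highest start of a gene above its neighbours was 8.74 Mb, for *PSAE2*. All 20 genes at or near 0 therefore lie far from the start of a chromosome, including *PSBS*, *PSAF* and *LHCB1.1* to *LHCB1.3*, which are known to be strongly expressed in leaves.

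Next to many of these genes lay a gene with counts of the scale of a photosystem gene. Within 5 kb of 14 of the 44 genes stood a gene with a mean of at least 5000 counts that exceeded the photosystem gene. Such counts were reached by 0.819% of the genes with a position (269 of 32835). This is a share of single genes, and the share of genes with such a gene within 5 kb, which would be the like measure, was not counted. The highest such gene beside each of the 14 was taken, which gave 13 genes. All 13 lay on the upper-coordinate side, 12 of them on the strand of the photosystem gene. Further genes of this scale within 5 kb were not counted. One of them is *CXIP1* (AT3G54900), with a mean of 15266 counts, 180 bases from *LHCA1* and on its strand (log2 fold change -0.69). Each of the 13 was lower in *rse1-1*, with log2 fold changes from -1.22 to -0.47. Their median was -0.76, beside -0.73 for the 17 genes above. The 13 were picked for high counts, and 70.9% of the 206 genes that averaged 500 CPM or more were lower. Among the 17 genes above their neighbours, only *LHCB6* had a gene of this scale within 5 kb, AT1G15825, at 347 ± 36.5 CPM in *rse1-1* and 612 ± 54.9 CPM in WT (SD, n = 3 each). AT1G15825 lies 192 bases from *LHCB6*, on its upper-coordinate side and on its strand (log2 fold change -0.82). Gene counts cannot show to which gene the reads of such a pair belong, and no read positions were used here. A value past about 10 Mb is therefore the value listed under a gene's name and may hold reads of another gene. This touches *LHCB4.3*, *PSBO1* and *PSBO2*, *LHCA1*, *LHCB1.4* and *LHCB3* as well as *CXIP1* and the 13 neighbours. The limit is not sharp. *PSBTN* (7.38 Mb) was low, and the light-harvesting-like genes *ELIP2* (8.42 Mb) and *LIL3.1* (9.80 Mb) had 0 counts. Past 10 Mb some genes outside the 44 were above both neighbours. Examples are *RCA* (16.6 Mb) and *ALB3* (12.4 Mb), with means of 19794 and 6248 counts, and whether these reads are their own was not tested. Values below 10 Mb, those of the 17 genes included, were not tested for reads of another gene. Whether the gene coordinates used for counting matched those of the aligned genome was not tested.

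For PSI genes these neighbours were AT1G31335 beside *PSAF*, AT1G55680 beside *PSAG*, *ROPGEF11* (AT1G52240) beside *PSAH2*, the pseudogene AT1G30390 beside *PSAK* and *ERS* (AT5G64050), a glutamate tRNA synthetase, beside *PSAN*. AT1G31335 (chr1:11216810-11217546, minus strand), which lies 668 bases from *PSAF*, had 1298 to 1574 CPM in *rse1-1* and 2298 to 2579 CPM in WT (log2 fold change -0.83, adjusted p = 1.52e-06, edgeR), while *PSAF* averaged 3.17 counts. The annotated pseudogene AT1G30390 had 813, 1026 and 949 CPM in *rse1-1* against 1615, 1512 and 1414 CPM in WT (log2 fold change -0.70), and *PSAK*, 206 bases away, had none. *ERS* fell the most of the 13, to 999 ± 70.8 CPM in *rse1-1* against 2328 ± 140 CPM in WT (SD, n = 3 each). AT1G55680 and *ROPGEF11* had log2 fold changes of -0.72 and -0.66, and *ROPGEF11* overlaps *PSAH2* on the opposite strand.

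For PSII they were *COR413-PM2* (AT3G50830), named for cold regulation, beside *PSBO2*, AT5G66580 beside *PSBO1*, AT4G21300 beside *PSBQ1* and *LGT5* (AT2G30575), a galacturonosyltransferase-like gene, beside *PSBW*. AT5G66580 (chr5:26572265-26573426, plus strand), 1803 bases from *PSBO1*, had 1788, 2112 and 1622 CPM in *rse1-1* against 3747, 3533 and 3373 CPM in WT (log2 fold change -0.95). *COR413-PM2*, 1230 bases from *PSBO2*, had 669, 738 and 692 CPM in *rse1-1* against 1626, 1592 and 1560.0 CPM in WT (log2 fold change -1.19). Thus *PSBO2* was higher in *rse1-1* at about 20.1 CPM while the abundant gene beside it was lower. AT4G21300 and *LGT5* had log2 fold changes of -0.91 and -0.65.

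Beside antenna genes they were AT3G54910 for *LHCA1*, AT1G61540 for *LHCA3*, AT3G47480 for *LHCA4*, and *AGL29* (AT2G34440), a MADS-box gene, for both *LHCB1.4* and *LHCB1.5*. AT1G61540 (chr1:22702498-22703706, plus strand) had 2273, 2784.5 and 2405 CPM in *rse1-1* against 4476, 4170 and 4029 CPM in WT (log2 fold change -0.76), and *LHCA3*, 1085 bases away, had none. AT3G54910 had 1609 ± 189 CPM in *rse1-1* and 2854 ± 159 CPM in WT (log2 fold change -0.83, SD, n = 3 each), whereas *LHCA1* beside it did not pass the test. AT3G47480 had a log2 fold change of -0.72. *AGL29* had the smallest decrease of the 13, with 2207, 2559.6 and 2231 CPM in *rse1-1* against 3589.5, 3092 and 2999 CPM in WT (log2 fold change -0.47, standard error 0.0960, adjusted p = 4.25e-04, edgeR). The last 10 genes not measured, *PSAE1*, *PSBR*, *PSBS*, *PSBY*, *LHCA2*, *LHCA5*, *LHCB1.1*, *LHCB1.2*, *LHCB1.3* and *LHCB2.3*, had no gene of this scale within 5 kb. The highest gene within 5 kb of them had a mean of 0.333 counts for *PSBS* and up to 1902 counts (*CARB*, beside *LHCB1.1* and *LHCB1.2*).

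**Figure D3:**
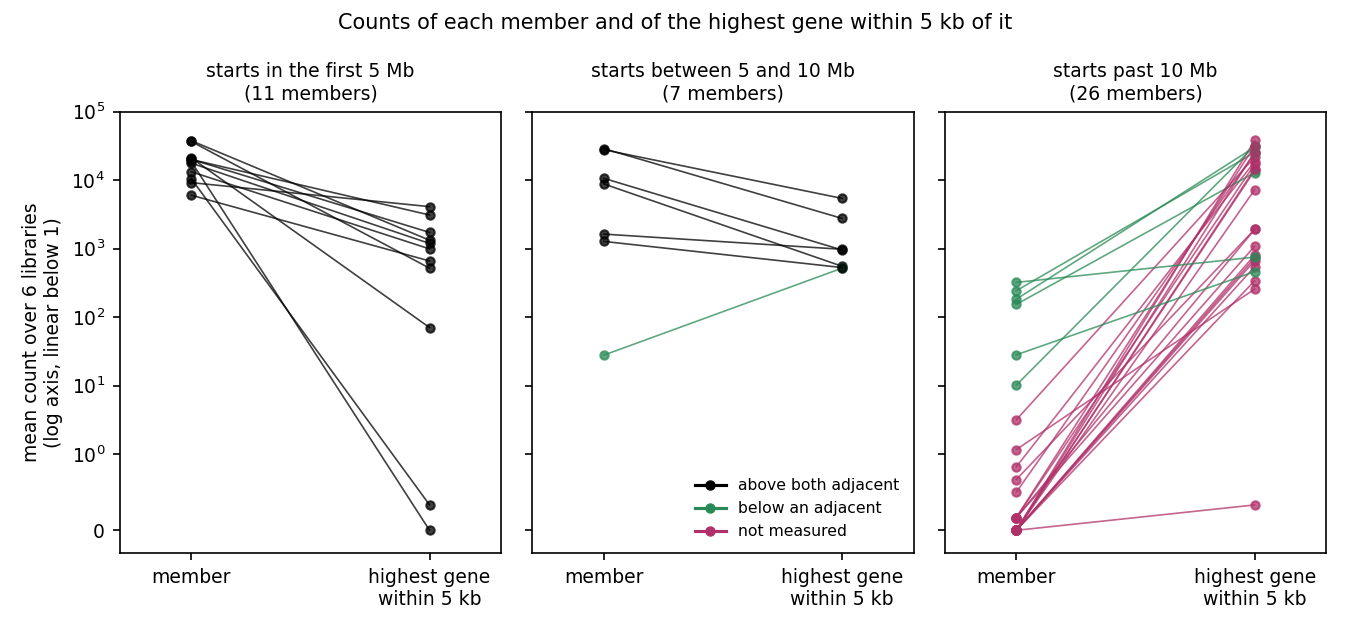
Mean count over 6 libraries (log axis, linear below 1) of each of the 44 genes and of the highest gene within 5 kb of it, joined by a line, for genes that start in the first 5 Mb, between 5 and 10 Mb and past 10 Mb of a chromosome. Black lines run down for the 17 genes above both neighbours, and lines of the 7 genes below a neighbour (green) and the 20 not measured (magenta) run up.

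Duplicated genes were compared within a library, where scaling has no effect on a ratio. Of 7 pairs of paralogues, 4 had both genes measured, and with 3 libraries a side an exact permutation test cannot go below p = 0.1. *PSAD1* exceeded *PSAD2* by a log2 ratio of 0.78 ± 0.09 in *rse1-1* and 0.61 ± 0.03 in WT (SD, n = 3 each), a difference of 0.17 without overlap (exact permutation test, two-sided, p = 0.1, adjusted over the 4 pairs 0.2). *LHCB4.1* exceeded *LHCB4.2* by 1.06 ± 0.05 in *rse1-1* and 1.05 ± 0.04 in WT, with overlap (exact permutation test, p = 0.5, adjusted 0.5). *LHCB2.1* over *LHCB2.2* was -0.75 ± 0.14 in *rse1-1* and -0.90 ± 0.22 in WT, also with overlap (exact permutation test, p = 0.4, adjusted 0.5). The ratio of *PSBO1* to *PSBO2* was -0.70 ± 0.03 in *rse1-1* and 2.06 ± 0.10 in WT, so that the more abundant copy was *PSBO2* in *rse1-1* and *PSBO1* in WT (exact permutation test, p = 0.1, adjusted 0.2). Both *PSBO* genes lie past 10 Mb and within 5 kb of a gene of at least 5000 counts that exceeds them.

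**Figure D4:**
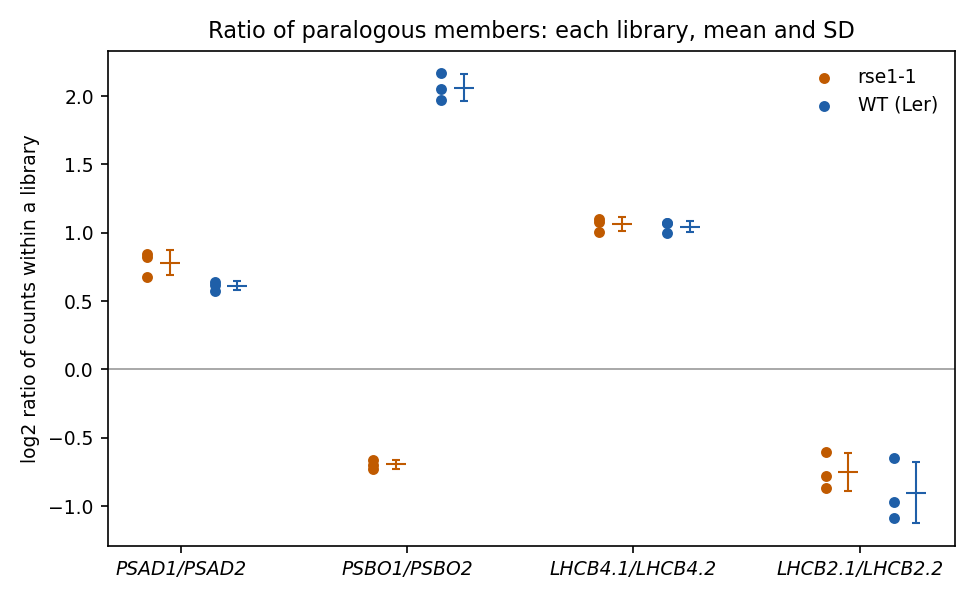
The log2 ratio of counts of paralogous genes within each library for the 4 pairs with both genes measured, with *rse1-1* in orange on the left and WT (L*er*) in blue on the right, and the mean and SD of 3 libraries beside the points. *PSBO1*/*PSBO2* differs by -2.76 between genotypes, and the other pairs differ by 0.17 or less.

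Because the 17 genes moved together, the 250 bases before each annotated gene start were searched for short motifs known from light-regulated plant promoters, on both strands. The first motif was the G-box with the letters CACGTG, a site of bHLH and bZIP factors. The others were the I-box core written GATAAG, the motif CCAATC that is linked to GLK factors, the binding motif of CCA1 with the letters AAAAATCT, and the evening element, which reads AAAATATCT. The G-box was found for 4 of the 17 genes (23.5%) and 9 of the 44 (20.5%), against 6.58% of all 26711 windows of protein-coding genes. The GLK-linked motif was found for 6 of the 17 (35.3%) and 12 of the 44 (27.3%), against 10.2% of all windows. The I-box core was found for 5 of the 17 (29.4%) and 9 of the 44 (20.5%), against 12.2% of all. The CCA1 motif was found for 1 of the 17 (5.88%) and 5 of the 44 (11.4%), against 6.74% of all, and the evening element for 0 of the 17 and 1 of the 44 (2.27%), against 2.40% of all, and 7 of the 17 genes had none of the 5 motifs. The windows are not all promoters, however, since 9 of the 17 overlap annotated exons of another gene. Among the 7 without a motif, 5 do so over 176 to 250 bases, which leaves *PSAH1* and *PSAL*. A match of letters is a description and does not show a binding site. The windows of 3 genes are printed, 5′ to 3′ on the strand of the gene, with motif matches in capitals, as examples, chosen after their values were seen, of windows with several motifs and with none. No relation between motifs and fold changes was tested. *PSBQ2* (chr4:2673244-2673493, minus strand) holds the G-box at 145 and 77 bases before the start, the I-box core at 15 and the GLK-linked motif, on the other strand, at 246. *LHCB4.1* (chr5:208616-208865, plus strand) holds the G-box at 74 and the GLK-linked motif at 194 and 35, the first of these on the other strand. *PSAL* (chr4:7521007-7521256, plus strand) holds none. The sequences are from RefSeq, TAIR10.1, and none of the 3 windows overlaps an annotated exon.
PSBQ2: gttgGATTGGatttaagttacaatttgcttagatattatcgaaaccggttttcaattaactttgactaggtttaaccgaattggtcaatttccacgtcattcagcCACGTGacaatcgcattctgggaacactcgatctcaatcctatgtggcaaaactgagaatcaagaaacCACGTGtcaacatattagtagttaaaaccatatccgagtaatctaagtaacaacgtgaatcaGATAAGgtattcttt
LHCB4.1: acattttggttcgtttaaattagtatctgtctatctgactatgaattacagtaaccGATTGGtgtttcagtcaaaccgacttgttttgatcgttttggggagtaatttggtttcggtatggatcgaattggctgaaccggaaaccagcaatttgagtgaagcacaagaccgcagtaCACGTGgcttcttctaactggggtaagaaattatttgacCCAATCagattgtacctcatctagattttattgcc
PSAL: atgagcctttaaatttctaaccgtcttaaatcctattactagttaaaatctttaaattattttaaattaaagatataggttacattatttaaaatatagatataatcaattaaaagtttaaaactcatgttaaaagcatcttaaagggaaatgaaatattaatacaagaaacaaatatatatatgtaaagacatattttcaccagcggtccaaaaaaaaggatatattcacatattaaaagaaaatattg

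Of 39 other nuclear genes of the photosynthetic chain in 5 lists, 27 were measured, with 22 lower in *rse1-1* (background 38.3%, and 70.9% among genes of at least 500 CPM), 3 higher (background 38.8%) and 2 not called. Only *PETC*, *FNR2*, *ATPC1*, *ATPD* and *ALB3* averaged 500 CPM or more. Of the 27, 10 start past 10 Mb, where the limit given above holds, and these were 6 of the lower genes (*PETE1*, *CPSRP43*, *CPFTSY*, *ALB3*, *PGRL1A* and *LIL3.2*), all 3 of the higher ones (*ATPG*, *TAP38* and *SEP1*) and *PSB33*. Of 8 genes of electron transport between and after the photosystems, 5 were measured and all 5 were lower, with a median log2 fold change of -0.85, against -0.01 over all genes tested. *PETC*, the Rieske subunit of the cytochrome b6f complex, had 758, 886 and 793 CPM in *rse1-1* against 1659, 1592 and 1531 CPM in WT (log2 fold change -0.97, standard error 0.0826, adjusted p = 4.96e-08, edgeR). Of the nuclear subunits of the chloroplast ATP synthase, 3 of 4 were lower and 1 was higher. *ATPD*, the delta subunit, fell to 468, 536 and 442 CPM in *rse1-1* against 1179, 1107 and 1101 CPM in WT (log2 fold change -1.23), whereas *ATPG*, which is below an adjacent gene, was higher (log2 fold change 1.22).

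Factors that build the photosystems or insert the antenna were also counted. Of 13, 10 were measured, 9 were lower (background 38.3% of the genes tested) and *PSB33* was not called, with a median log2 fold change of -1.01. *CPSRP43* (start at 19.5 Mb), which delivers LHC proteins to the thylakoid, had the largest decrease, to 39.0, 41.7 and 45.8 CPM in *rse1-1* against 131, 124 and 108 CPM in WT (log2 fold change -1.52, adjusted p = 6.41e-10, edgeR). *CPSRP54*, its partner, and *HCF136*, needed for PSII assembly, had log2 fold changes of -1.30 and -1.36. *PSB33* had 42.2 to 47.3 CPM in *rse1-1* and 44.8 to 58.2 CPM in WT (log2 fold change -0.19, adjusted p = 0.0822, edgeR).

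Of 6 genes of state transitions and cyclic electron flow, 5 were measured, with 3 lower, 1 higher and 1 not called, too few to set against the background. *STN8*, a kinase of PSII core proteins, fell the most (log2 fold change -1.14), *TAP38*, the phosphatase of LHCII, was higher (0.55) and below an adjacent gene, and *PGRL1B*, of cyclic electron flow, was not called at 98.1 to 107 CPM in *rse1-1* and 97.4 to 107 CPM in WT (0.02, adjusted p = 0.825, edgeR). Of 8 light-harvesting-like stress proteins, 3 were measured. *LIL3.2* and *OHP1* were lower (-1.23 and -0.79), and *SEP1*, a stress-enhanced protein, rose to 333, 267 and 344 CPM in *rse1-1* against 82.8, 66.6 and 67.3 CPM in WT (log2 fold change 2.13, adjusted p = 1.50e-10, edgeR). *SEP1* also lies below an adjacent gene. Above both neighbours were 19 measured genes of these 5 lists. Of these, 17 were lower, 2 were not called and 0 were higher, beside the shares of all genes given above. Of the 17 lower genes, *CPSRP43*, *CPFTSY*, *ALB3* and *LIL3.2* start at 12.4 to 19.5 Mb, and *PSB33*, not called, at 26.9 Mb. There a listed value may hold reads of another gene, as described above. *KAT1*, a gene of none of these lists, was above both neighbours and higher, but it starts at 18.7 Mb, where the same limit holds. All 20 plastid-encoded photosystem genes were listed at 0, as were all 133 plastid loci of the table, so the reaction center transcripts cannot be set beside the nuclear ones.

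**Figure D5:**
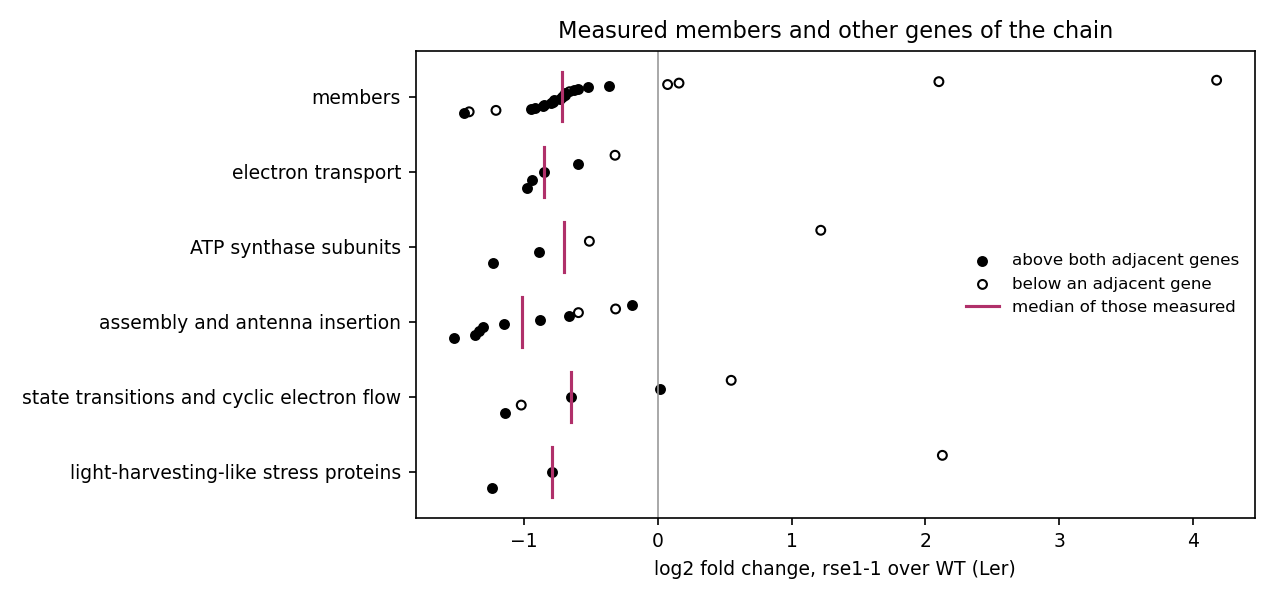
The log2 fold change of *rse1-1* over WT (L*er*) for the 24 measured photosystem and antenna genes and for measured genes of 5 other lists of the photosynthetic chain, with the median of each as a line. Every point above 0.1 except *LHCB1.4* is a gene called higher, and all of these are open, that is, below an adjacent gene.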

How the data were processed

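mRNA of leaves was measured in 6 libraries, 3 of *rse1-1* and 3 of L*er* (WT), grouped by the sample labels. Per the paper's methods and the labels, the authors trimmed single reads of 75 bases with Trimmomatic 0.32.3, aligned them with TopHat2 2.0.9 to a L*er*-0 genome rebuilt from Col-0 (build TAIR10 per the labels), used Picard 1.119 against PCR duplicates, and counted reads with a unique position on genes with HTSeq 0.6.1. What the authors deposited is a table of raw whole-number counts for each gene. The strand setting of the counting is not given in the sources used here. A single library held 46685 counts for *PSBP1*, or 34.5 per exon base, which is more than 1 read per start position and strand, so the counts may still include PCR duplicates, and limits from counting error may then be too narrow.

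Entries that name no gene (47.0% to 48.7% of a library) stayed out of library sizes and tests. Symbols, positions and exons came from TAIR10.1, in which 32835 of the 33602 loci were found. The genotypes were compared with edgeR 4.0.16 in R 4.3.3 (TMM, filterByExpr with a minimum count of 10, genotype alone, quasi-likelihood test) over 16294 genes, with Benjamini-Hochberg adjustment and a threshold of 0.05. The standard error is the size of the log2 fold change divided by the square root of F. The p-values measure the spread between these libraries, and replicates of a genotype differed by more than sampling noise. A gene was called measured at a mean of at least 10 counts. Adjacent genes were the next genes by start on each side. Windows of 250 bases upstream were read from the TAIR10.1 genome with Python 3.11.15, and coding sequences were aligned with Biopython 1.88.

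The genes and lists were chosen with earlier results of these data known. All 44 genes are named. Full values are given for the 3 most abundant, the 2 most changed and the discordant genes of each complex. Where a photosystem gene was not measured or had fewer counts, its highest neighbour within 5 kb is named if that averaged at least 5000 counts. Of the other neighbours only some are named. From each other list the largest change in each direction is named, and *LHCB2.1*, *LHCB2.2*, *PSB27*, *PSAE2*, *LHCB4.2* and the further genes of other lists were added after their values were seen. Alternatives were DESeq2 1.42.0, limma-voom (limma 3.58.1), RLE, upper quartile or no scaling, other filters and thresholds, a replicate block, each library left out, and subsets of the genes.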

Additional observations from a re-analysis of the deposited data

How the results depend on the processing

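Of 334 log2 fold changes of single photosystem and antenna genes recomputed under other tests, scalings, filters, the replicate block and with each library left out, 329 kept their direction and their side of the threshold. *LHCB2.1* lost its call without WT replicate 2, at -0.28. The other 4 changed sign in genes that were not called in any of these fits, *LHCA1* at -0.12 under upper quartile scaling and *LHCB1.4* at -0.031. With each library left out *LHCA1* lay between -0.013 (without *rse1-1* replicate 3) and 0.17, and *LHCB1.4* between -0.16 (without WT replicate 2) and 0.24. The 17 genes above their neighbours stayed between -1.64 and -0.28. Upper quartile scaling gave a median of -0.20 over all genes in place of -0.01 and of -0.90 over the measured members of the list in place of -0.71, with 5112 genes higher and 7633 lower, beside 6314 higher and 6234 lower under TMM. With a log2 fold change beyond 1 required as well, 5175 genes were called instead of 12548, and 3 photosystem and antenna genes were lower instead of 20. In the first 5 Mb of the chromosomes 11 genes were lower and 0 higher, and among genes above both neighbours 17 were lower and 0 higher, in place of 2 higher over all measured genes. With each library left out, 11911 to 12546 genes were called, the median of the measured genes lay between -0.79 and -0.64, 19 or 20 were lower and 2 were higher. The replicate numbers do not pair the libraries (correlations of same-numbered deviations 0.042, 0.080 and -0.083), and with the replicate number as a block 12546 genes were called, 20 photosystem and antenna genes were lower and 2 were higher, with a median of -0.72. Counts under 10 limit what can be said of the 20 genes not measured, and no alternative can recover them.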
